A study of Setaria viridis with 11 samples.

Results

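Cyclic electron transport around photosystem I was examined through 8 leaf transcripts of Setaria viridis, out of the 40599 transcript identifiers counted in every plant. They were taken by identifier, in a list chosen with earlier results of these data known. The members were NDHA (Si020867m), both identifiers annotated as PSBG, an older name of NDH subunit K (Si020825m and Si020760m), NDHJ (Si020781m), NDF2 (Si036292m), a further transcript of the NADH dehydrogenase bin (Si035784m), PGR5 (Si015371m) and PGR5-LIKE A (Si030444m). The study grew wild-type A10 plants with days of 28 °C and nights of 20 °C as controls (5 plants), or moved them for 2 weeks to days of 42 °C and nights of 32 °C (6 heat-stressed plants). All plants had 16 h of light, 8 h of darkness and 380 ppm CO2, and fully expanded leaves were harvested at day 28, so the groups shared genotype and age. Each temperature had its own growth chamber, and chamber and temperature cannot be told apart.

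Cyclic electron transport returns electrons from the acceptor side of photosystem I to the plastoquinone pool and builds the proton gradient for ATP synthesis without net NADPH. In plants it has an NDH route, through a large thylakoid complex with subunits encoded in the plastid and in the nucleus, and a PGR5 route, which needs the small protein PGR5 and its membrane partner PGRL1. In C4 grasses of the NADP-malic enzyme type, to which Setaria belongs, bundle sheath cells carry much of the cyclic flow and are rich in the NDH complex. The leaf samples hold bundle sheath, mesophyll and other cells, and in such bulk samples fewer cells of a type and less RNA per cell cannot be told apart.

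Total counts lay between 34362084 and 54011056 in control plants and between 34731849 and 47441261 in heat-stressed plants. Between 61.8% and 69.6% of them in control plants, but 46.1% to 48.5% under heat, fell on psbA (Si020824m), which encodes a reaction centre protein of photosystem II. Scaled by library size alone, the median log2 fold change of all transcripts was 1.07, and with psbA left out of the library size it was still 0.40. Levels are given here as CPM (counts scaled to a common library size) after TMM scaling, which put that median at 0.02. Reads with several places in the genome numbered 0.222 to 0.646 per count in 4 control plants, 1.81 in control plant 2 and 0.351 to 0.622 in the heat-stressed plants. Ambiguous reads, which overlapped more than a single counted transcript, came to 9.32% to 12.6% of the counts in control plants and 15.9% to 17.97% under heat. Their part in the results below was not tested. No transcript lengths were used, so levels are not compared between genes, and ratios of 2 transcripts are read only for their change between the groups.

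All 8 members passed the filter on low counts. Under heat 3 were higher (PSBG Si020760m, NDHJ and Si035784m), 4 were lower (NDHA, PSBG Si020825m, PGR5 and PGR5-LIKE A) and NDF2 did not pass the threshold of 0.05 on the adjusted p of edgeR's quasi-likelihood test. Of all 18065 tested transcripts, 32.2% were higher and 30.9% lower at that threshold (63.1% in either direction), so a call by itself was common. The median log2 fold change of the members was -0.30. The groups did not overlap for 5 members, 2 higher and 3 lower under heat, against 44.9% of all tested transcripts (23.5% higher and 21.4% lower). Scaled by library size only, 6 members were called higher and 1, NDHA, lower, beside 13216 higher and 1385 lower of all transcripts. When psbA was left out of the library size, 3 were called higher and 2 lower, beside 8410 higher and 3380 lower of all transcripts. Most calls were thus to the higher side under both scalings, among all transcripts as among the members.

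**Figure D1:**
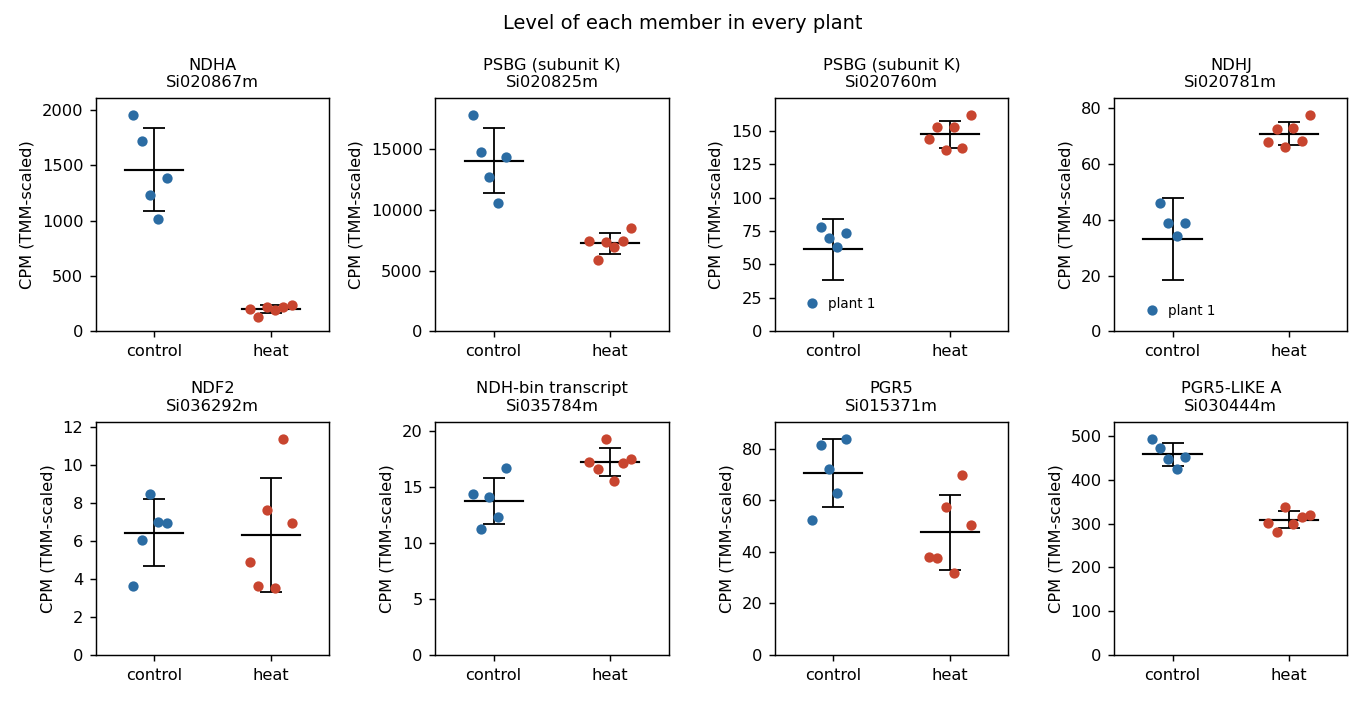
TMM-scaled CPM of the 8 members in each plant, with 5 control plants in blue and 6 heat-stressed plants in red, the horizontal line at the mean and the bar at 1 SD. The groups are apart for NDHA, both PSBG identifiers, NDHJ and PGR5-LIKE A, and overlap for NDF2, Si035784m and PGR5.

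Among the plastid-encoded subunits, NDHA had the steepest fall. NDHA lies in the membrane arm of the complex, near its junction with the peripheral arm. Its level was 1953, 1720, 1235, 1015 and 1381 CPM in control plants 1 to 5. In the heat-stressed plants the lowest was 133, the median 208 and the highest 236 CPM. Every heat-stressed plant was far below every control plant. The mean fell from 1461 ± 376 (SD, n = 5) to 199 ± 36.2 CPM (SD, n = 6), which is 7.35-fold lower, and the log2 fold change was -2.88 (SE 0.188) with an adjusted p of 2.39e-08 in edgeR. Only 1.98% of all tested transcripts had a lower log2 fold change. NDHA stayed lower with library size as the only scaling (-1.79), and leaving out each plant in turn gave -2.99 to -2.75.

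The identifier Si020825m, annotated as PSBG, held most of the counts of the NDH members. NDH subunit K belongs to the arm of the complex that carries electrons towards plastoquinone. Si020825m stood at 17792, 14778, 12711, 10600 and 14320 CPM in control plants 1 to 5. The heat-stressed plants had a lowest level of 5866, a median of 7390 and a highest level of 8520 CPM. The groups did not overlap, and the mean was 1.93-fold lower under heat (14040 ± 2660 CPM in 5 control plants and 7260 ± 861 in 6 heat-stressed plants, SD). The log2 fold change was -0.95 (SE 0.167, adjusted p = 0.000191 in edgeR). That direction depends on the scaling, since library size alone gave 0.12 (adjusted p = 0.347) and library size without psbA gave -0.55 (adjusted p = 0.00251). The counts themselves were 292399 to 482868 in control and 350639 to 495132 in heat-stressed plants and overlapped.

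The other identifier annotated as PSBG, Si020760m, went the opposite way. Its level was 21.4, 78.1, 69.8, 63.5 and 73.4 CPM in control plants 1 to 5. Under heat the lowest, median and highest levels were 136, 149 and 162 CPM. All heat-stressed plants were above all control plants, and control plant 1 was well below the other controls. The mean rose 2.41-fold, from 61.2 ± 22.9 (SD, n = 5) to 148 ± 10.1 CPM (SD, n = 6), and the log2 fold change was 1.27 (SE 0.242) with an adjusted p of 0.0004 in edgeR. Without control plant 1 the log2 fold change was 1.05 (adjusted p = 1.06e-06). The rise rested on 568 to 2475 counts in each control and 7059 to 9948 in each heat-stressed plant, and under library size alone it was 2.30.

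The identifier annotated as NDHJ, a subunit of the stromal side arm of the complex, moved with Si020760m. Control plants 1 to 5 had 7.79, 46.1, 38.7, 34.0 and 39.0 CPM of NDHJ. The heat-stressed plants had 66.3 CPM at the lowest, 70.5 at the median and 77.6 at the highest. The groups did not overlap, and control plant 1 was again the lowest, with 207 counts against 912 to 1328 in the other controls. The mean rose 2.14-fold from 33.1 ± 14.8 (SD, n = 5) to 71.0 ± 4.21 CPM (SD, n = 6), and the log2 fold change was 1.1 (SE 0.301) with an adjusted p of 0.00554 in edgeR. It was 0.84 without control plant 1 (adjusted p = 9.29e-06), and 2.13 under library size alone.

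NDHJ and Si020760m also have neighbouring locus names in the annotation table, Seita.J010000 and Seita.J009900, while Si020825m is Seita.J020300. In the RefSeq annotation of the S. viridis plastid (assembly Setaria_viridis_v4.0), ndhJ lies between trnF-GAA and ndhK, and ndhK between ndhJ and ndhC. That table is of another assembly than the S. italica genome used for the counts, so it gives only the order of the genes. A plastid gene and a near-identical copy elsewhere in the assembly can share reads, and reads with several places were not counted. How the reads of subunit K were split between Si020825m and Si020760m is therefore uncertain. Whether Si020781m and Si020760m are the plastid genes or copies elsewhere in the assembly was not tested. Their rises are those of the identifiers and do not show that plastid ndhJ or ndhK rose.

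The balance between both PSBG identifiers was compared within each plant, as the log2 ratio of their counts, which does not depend on the scaling between plants. Si020760m was 0.12%, 0.526%, 0.546%, 0.595% and 0.51% of the summed counts of both in control plants 1 to 5. Under heat its share was 1.81% at the lowest, 1.88% at the median and 2.54% at the highest. Every heat-stressed plant had a larger share than every control plant, though Si020825m kept nearly all counts in both groups. The log2 ratio rose from -7.95 ± 0.98 (SD, 5 control plants) to -5.61 ± 0.197 (SD, 6 heat-stressed plants), which is a 5.06-fold shift. It had the smallest p that regrouping 5 and 6 plants can give in a 2-sided exact permutation test (p = 0.00216, adjusted p = 0.00505 over 7 ratios). Both identifiers were already apart in opposite directions in CPM, so this p had to follow and is no separate evidence. Without control plant 1 the rise was 1.90.

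**Figure D2:**
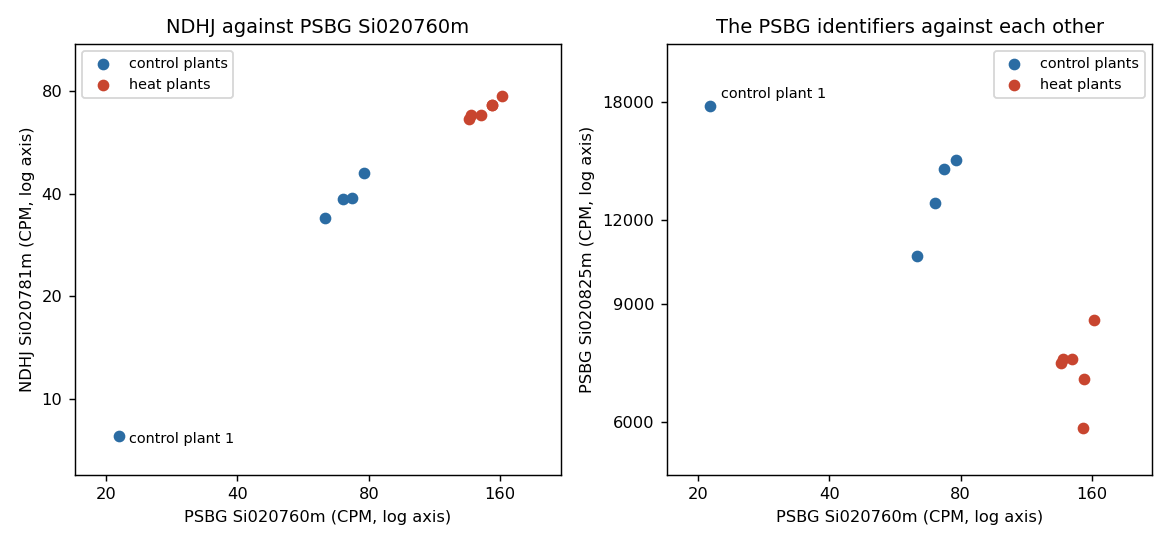
Left, NDHJ against PSBG Si020760m, and right, PSBG Si020825m against PSBG Si020760m, each point 1 plant and each axis CPM on a log scale. On the left the 11 plants follow a line with control plant 1 at its low end (21.4 and 7.79 CPM), and on the right control plant 1 has the lowest Si020760m and the highest Si020825m (17792 CPM).

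The ratio of NDHJ to Si020760m differed little between the groups when all plants were used. The log2 ratio of NDHJ to Si020760m was -0.97 ± 0.274 (SD, n = 5) in control and -1.06 ± 0.0279 (SD, n = 6) in heat-stressed plants, a difference of -0.08 that did not pass the exact permutation test (p = 0.548, adjusted p = 0.639). Control plant 1 decided this value: it had a ratio of -1.45, and without it the ratio was lower by 0.20 under heat (difference -0.20, adjusted p = 0.00833 in the exact permutation test). After centring each group on its mean log2 CPM, the correlation of both over 11 plants was 0.997, and 0.932 without control plant 1. The correlation between the PSBG identifiers was -0.51 with control plant 1 and 0.51 without it. These correlations are descriptions, and the plants share depth and scaling.

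The ratio of NDHA to PSBG Si020825m fell in all heat-stressed plants. In control plants it was -3.28 ± 0.129 on the log2 scale (SD, n = 5, range -3.38 to -3.10), and under heat -5.21 ± 0.138 (SD, n = 6, range -5.47 to -5.09). NDHA was thus 3.79-fold lower relative to Si020825m (exact permutation p = 0.00216, the smallest possible, adjusted p = 0.00505). The centred levels of both followed each other across the plants, with a correlation of 0.957 (n = 11).

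Of the nuclear members placed in the NDH route, NDF2 did not pass the threshold and Si035784m was called higher. NDF2, named in Arabidopsis as a factor that NDH activity depends on, had 3.65, 6.07, 8.46, 7.02 and 6.94 CPM in control plants 1 to 5. Under heat its lowest, median and highest levels were 3.51, 5.90 and 11.4 CPM. The heat-stressed plants enclosed all the control plants. The log2 fold change of NDF2 was -0.03 (SE 0.294, adjusted p = 0.935 in edgeR), with means of 6.43 ± 1.77 (SD, n = 5) and 6.32 ± 2.99 CPM (SD, n = 6). Its sign changed in 11 of 22 alternative settings, and under library size alone it was 0.97 (adjusted p = 0.010).

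Si035784m is placed in the NADH dehydrogenase bin of the annotation table, which matches it to an Arabidopsis protein of unknown function. Its levels were 14.4, 11.3, 14.1, 12.3 and 16.7 CPM in control plants 1 to 5, and 15.6, 17.2 and 19.3 CPM at the lowest, median and highest under heat. Control plant 5 lay within the heat-stressed range and the other 4 controls below it. The mean was 13.8 ± 2.09 CPM in 5 control plants and 17.2 ± 1.23 in 6 heat-stressed plants (SD). The log2 fold change was 0.32 (SE 0.103, adjusted p = 0.0133 in edgeR). The call was lost with single reads only (0.25, adjusted p = 0.114) and without control plants 1 and 2 together (0.26, adjusted p = 0.077).

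Both members of the PGR5 route were lower under heat, by nearly the same amount. PGR5, a small stromal-side protein of the thylakoid needed for this route, had 52.2, 81.6, 72.0, 62.8 and 83.8 CPM in control plants 1 to 5. The heat-stressed plants had 31.8 CPM at the lowest, 44.2 at the median and 69.7 at the highest. The groups overlapped: control plant 1 was below 2 of the heat-stressed plants. The mean went from 70.5 ± 13.2 (SD, n = 5) to 47.5 ± 14.4 CPM (SD, n = 6), and the log2 fold change was -0.57 (SE 0.191) with an adjusted p of 0.0182 in edgeR. The call was lost without heat-stressed plant 1 (-0.48, adjusted p = 0.0582), plant 2 (-0.47, adjusted p = 0.0542) or plant 4 (-0.44, adjusted p = 0.0512). It was also lost with psbA left out of the library size (-0.19, adjusted p = 0.365), and under library size alone PGR5 was higher (0.47, adjusted p = 0.0325).

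PGR5-LIKE A is annotated after the PGRL1 family, the membrane partners of PGR5. Its levels lay close together among the control plants, which had 494, 474, 447, 426 and 453 CPM (plants 1 to 5). Under heat the lowest, median and highest levels were 280.1, 308 and 337 CPM. The groups did not overlap. The mean was 1.48-fold lower under heat, at 309 ± 19.7 (SD, n = 6) against 459 ± 26.0 CPM (SD, n = 5), and the log2 fold change was -0.57 (SE 0.0867) with an adjusted p of 5.61e-05 in edgeR. The fall depends on the scaling too: it was -0.17 (adjusted p = 0.0764) with psbA left out of the library size, and 0.49 (adjusted p = 0.000697) under library size alone.

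**Figure D3:**
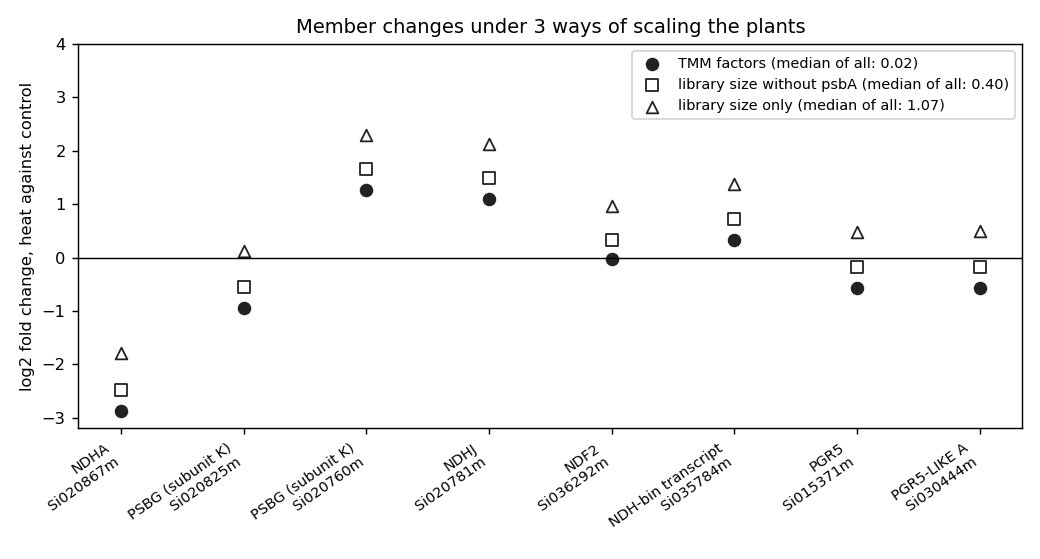
Log2 fold change of each member, heat against control, under TMM scaling (filled circles), library size without psbA (squares) and library size only (triangles). The median of all tested transcripts is 0.02, 0.40 and 1.07 in turn; NDHA is below 0 and Si020760m, NDHJ and Si035784m above 0 in all 3, while PSBG Si020825m, PGR5 and PGR5-LIKE A cross 0 under library size only and NDF2 under both library sizes.

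Set against the median transcript, the order of the members hardly moved between these scalings, as a common shift must give. NDHA was at -2.90 from that median with TMM factors and at -2.86 with library size only, and PGR5-LIKE A was at -0.59 and -0.58. Such values place a member against other transcripts and do not show whether its amount per leaf fell.

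Within the PGR5 route, the ratio of PGR5 to PGR5-LIKE A did not pass the test. Its log2 value was -2.72 ± 0.314 (SD, n = 5) in control and -2.75 ± 0.372 (SD, n = 6) in heat-stressed plants, with a 2-sided exact permutation p of 0.877. The ranges, -3.24 to -2.44 and -3.24 to -2.18, covered almost the same span. The single-plant values of PGR5 went with those of NDF2 more than with those of its partner, with a centred correlation of 0.893 against 0.380 over 11 plants. Without control plant 1 these were 0.870 and 0.705.

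The routes were then set against each other within plants. NDHA relative to PGR5-LIKE A fell 4.90-fold, from a log2 ratio of 1.63 ± 0.295 (SD, n = 5) to -0.66 ± 0.222 (SD, n = 6), with no overlap (exact permutation p = 0.00216, the smallest possible, adjusted p = 0.00505). PSBG Si020825m relative to PGR5-LIKE A fell less, by 0.37 on the log2 scale, from 4.92 ± 0.198 (SD, n = 5) to 4.55 ± 0.124 (SD, n = 6), and the groups overlapped (exact permutation p = 0.00866, adjusted p = 0.0152). Without control plants 1 and 2 together that difference was -0.27 and its adjusted p 0.05. NDF2 relative to PGR5 rose by 0.50, from -3.48 ± 0.34 (SD, n = 5) to -2.98 ± 0.263 (SD, n = 6), with overlap (exact permutation p = 0.0303, adjusted p = 0.0424). This last call was lost in 8 of 11 fits that left out a plant, and remained only without control plant 3, control plant 4 or heat-stressed plant 2.

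**Figure D4:**
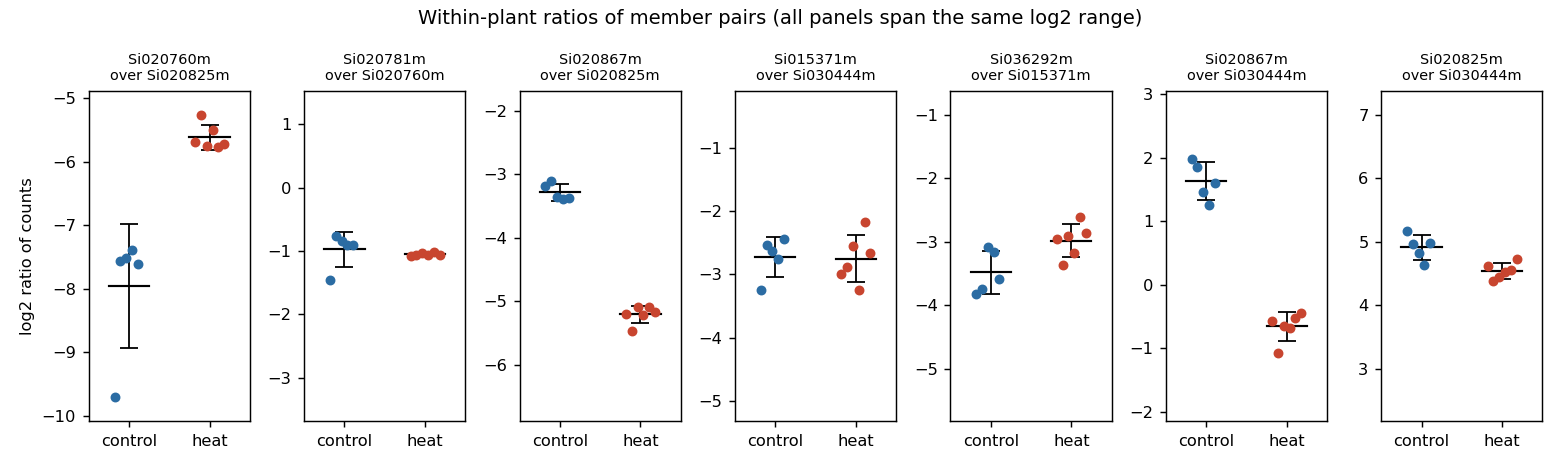
Log2 ratio of the counts of 7 pairs of members in each plant, control in blue (5 plants) and heat in red (6 plants), with mean and SD; all panels span the same range. The groups are apart for Si020760m over Si020825m (5.06-fold up), NDHA over Si020825m (3.79-fold down) and NDHA over PGR5-LIKE A (4.90-fold down).

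As a single value per plant, the mean log2 CPM of the 6 NDH members minus that of both PGR5 members was given without a test. It was -0.96, -0.53, -0.45, -0.54 and -0.51 in control plants 1 to 5 and ran from -0.30 to -0.02 in the heat-stressed plants. All heat-stressed plants were above all controls, by 0.44 on average. The mean over the NDH members was 6.88 in control and 6.74 in heat-stressed plants on the log2 scale, and that over the PGR5 members 7.48 and 6.89. This average weighs each identifier alike and so adds members that rose to members that fell. By counts the picture is set by PSBG Si020825m, which made up 88.8% to 90.4% of the counts of the 6 NDH members in control and 93.9% to 94.5% in heat-stressed plants. That identifier fell relative to PGR5-LIKE A, by 0.37 on the log2 scale with overlapping groups, opposite to the score. The NDH transcripts outside the members are not in the score. Their median log2 fold changes were -2.02 (10 plastid-type) and -1.95 (4 tested nuclear), against -0.57 for the PGR5 members. The higher score is therefore no sign that the NDH route gained on the PGR5 route.

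The other transcripts of the NADH dehydrogenase and cyclic electron flow bins came from the part of the annotation table used here, with NDF4 added from another bin. Of 28 such transcripts, 17 were tested; 16 were lower under heat and 0 higher (0 also at an unadjusted p of 0.05 and in DESeq2), and PIFI Si037354m did not pass (log2 fold change 0.57, SE 0.368, adjusted p = 0.191 in edgeR, at most 18 counts in a plant). Their median log2 fold change was -1.94, against 0.02 for all tested transcripts and -0.30 for the members. The groups did not overlap for any of the 16. These 16 and the median include 2 transcripts not named as parts of either route. They are mitochondrial NAD5 Si020754m (-0.80) and Si020852m, matched to the Rubisco large chain (-1.45). Of all tested transcripts, 30.9% were called lower and 21.4% were lower without overlap. Under library size alone 11 were lower and 2 higher (PIFI Si037354m, 1.57, and mitochondrial NAD5, 0.27), beside 1385 lower and 13216 higher of all transcripts.

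All 10 transcripts annotated as other plastid-type NDH subunits were lower, with a median of -2.02. NDHI, an iron-sulfur subunit, had the steepest falls at Si027241m (-2.54, SE 0.281, adjusted p = 3.03e-06) and Si020863m (-2.35, SE 0.190, adjusted p = 1.57e-07), in edgeR's test. NDHH, of the side arm, was at -2.21, NDHG at -2.14 and NDHE at -1.99. The smallest falls were those of NDHB Si020857m (-1.24) and of NDHF (-1.34), membrane subunits. NDHI, listed with 3 identifiers, and NDHB, with 2, can share reads between copies. In the RefSeq order ndhE, ndhG, ndhI, ndhA and ndhH follow each other on the plastid, and every tested transcript with these names was lower here. The order is that of the names and does not show that each identifier is the plastid gene. The only NDHE identifier, Si027411m, has the locus name Seita.8G120700, and NDHI Si015577m has Seita.6G106300. NDHG, NDHA and NDHH have Seita.J names. PSBG Si020760m and NDHJ were the only risers among 15 tested transcripts, markers and psbA included, whose identifiers begin with Si0207 or Si0208. Under library size alone NAD5 Si020754m (0.27) and the Rubisco large subunit Si020845m (0.45) were called higher as well. The tested NDH transcripts outside the members all stayed below 0 under that scaling, with NDHB Si020857m (-0.16), NDHF (-0.25) and NDF4 (-0.32) not past the threshold.

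The 4 tested nuclear NDH subunits and factors outside the members were all lower. NDH-M was at -1.94, NDH-N at -1.96, CRR23 at -1.999 and NDF4 at -1.37 on the log2 scale, with adjusted p of 0.000121 or less in edgeR. NDH-M, for example, had 112 to 120 CPM in control and 19.2 to 41.2 CPM in heat-stressed plants. CRR23 had 58.7 to 90.6 and 11.3 to 28.8 CPM. Both are subunits known from the Arabidopsis complex, and their falls were larger than that of either PGR5 member, though these differences were not tested. NDH-O (2 identifiers) and 2 further PGR5-LIKE A identifiers had at most 2 counts in a plant and were not tested. The 4 identifiers of IMMUTANS, the plastid terminal oxidase, and 3 further ones of PIFI were not tested either, and the highest of them, IMMUTANS Si023157m, reached 14 counts. Whether reads overlapping several identifiers of a name were left out as ambiguous was not tested. These low counts therefore do not show that the genes were silent.

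**Figure D5:**
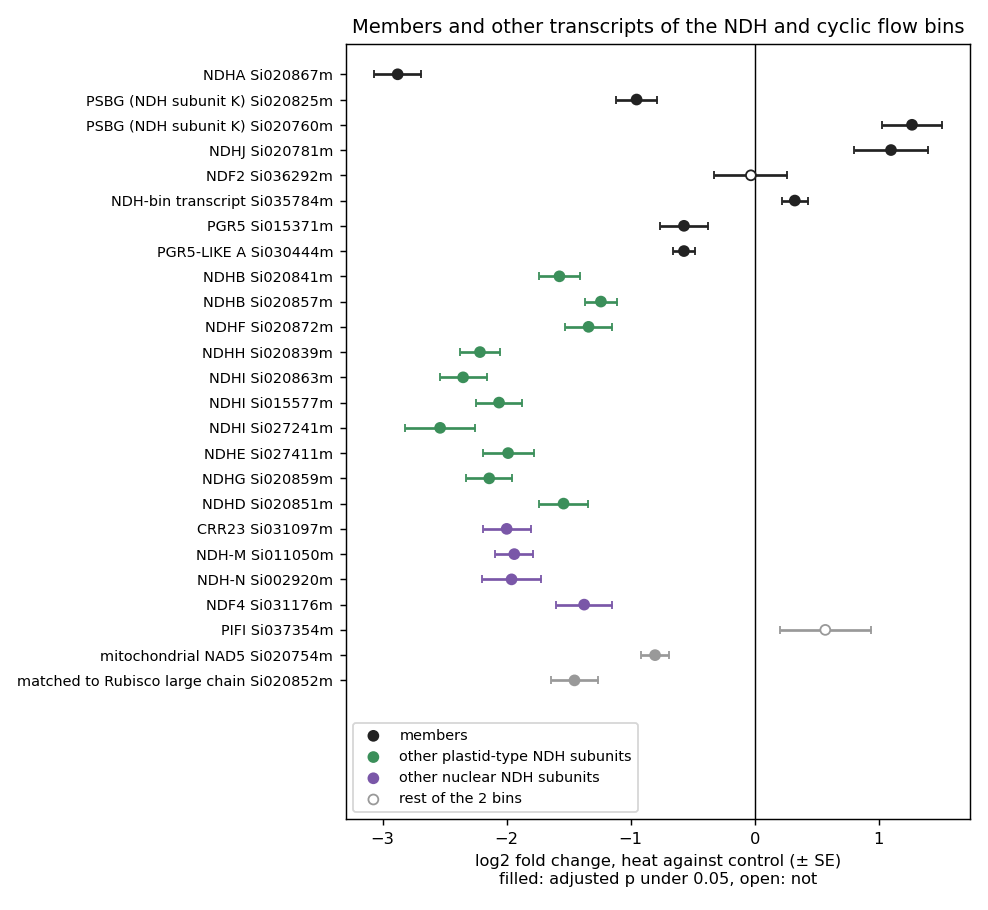
Log2 fold change, heat against control, with its SE, for the 8 members (black) and the 17 other tested transcripts of the list (green, plastid-type NDH; purple, nuclear NDH; grey, others); filled points passed an adjusted p of 0.05. The 16 filled points outside the members are all below 0, whereas PSBG Si020760m, NDHJ and Si035784m are above it.

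Markers of both C4 cell types moved in the same direction as most of the list. Both mesophyll markers were lower under heat: PEPC at -0.88 and carbonic anhydrase at -0.91, with summed levels of 13616 to 19718 CPM in control and 5361 to 15081 CPM in heat-stressed plants. Of 4 bundle sheath transcripts, the Rubisco large subunit (-0.61) and both small subunit identifiers (-2.08 and -0.43) were lower, and NADP-malic enzyme was at -0.76 (adjusted p = 0.0865 in edgeR). Their summed levels were 26889 to 35552 CPM and 17052 to 21259 CPM, and without the plastid-encoded large subunit 143 to 227 and 82.1 to 222 CPM. No marker was at 0 in any plant. Single reads made up 404 of 835 counts of NADP-malic enzyme in control plant 1 and 1557 of 5932 in heat-stressed plant 5. Of all counts they were 10.1% and 11.3% in these plants. Whether other copies of the small subunit and NADP-malic enzyme genes hold further reads was not tested. Under library size alone PEPC and carbonic anhydrase were at 0.14 and 0.13. The bundle sheath markers then went both ways, with the large subunit at 0.45, the small subunit Si023437m at 0.63 and NADP-malic enzyme at 0.22, but the small subunit Si023461m still lower at -1.06 (adjusted p = 0.00305 in edgeR). The part of cell composition in the members' changes was not tested.

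The transcripts that followed each member most closely across the plants were found among 4096 with a mean of at least 10 CPM, by the correlation of log2 CPM centred on the group means (n = 11, sharing depth and scaling). For NDHA they were NDHD Si020851m (0.974) and NDHI Si020863m (0.959), and for PSBG Si020825m they were NDHI Si020863m (0.992) and Si020858m (0.980). Si020760m and NDHJ were each other's nearest (0.997), and the next were Si025305m (0.836) and Si039973m (0.855). NDF2 was nearest to Si031109m (0.978) and Si030773m (0.947), and Si035784m to Si025853m (0.959) and Si029762m (0.943). PGR5 was nearest to Si036746m (0.956) and Si010580m (0.953). PGR5-LIKE A was nearest to Si039733m, annotated as ATPF (0.918), and Si026519m, annotated as GME (0.912).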

How the data were processed

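The authors extracted RNA from pooled leaf midsections, depleted ribosomal RNA and made strand-specific Illumina libraries. Reads passed through Trimmomatic, were mapped by TopHat2 on the S. italica genome and were assigned to exons by HTSeq (union mode). The deposited values are counts per transcript, not normalized, in 22 files, 1 of read pairs and 1 of single reads per plant. Summary lines (30.3% to 67.3% of all entries in a plant) were left out.

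Both files were summed per plant, filtered with filterByExpr and compared with the quasi-likelihood test of edgeR 4.0.16 (R 4.3.3; TMM factors; Benjamini-Hochberg over 18065 transcripts, threshold 0.05); the SE is the log2 fold change over the square root of F. Log2 CPM used a prior count of 2, and within-plant ratios a pseudocount of 0.5 and a 2-sided exact permutation test over all splits into 5 and 6 plants, adjusted over 7 ratios. The plants are separate samples per the labels. Members had at least 97 counts in a plant, so the spread between plants mainly sets the precision. Alternatives included DESeq2 1.42.0, other scalings and filters, read types and left-out plants. Same-numbered plants did not deviate together (mean correlation 0.042, other pairs -0.01) and were treated as unpaired. The members and lists were chosen with earlier results of these data known. By rule, the genes named are the 8 members, listed transcripts described in their group counts (the largest changes and any alone in direction with values), markers, psbA and the 2 nearest transcripts of each member. The smallest falls, the untested transcripts and those not called under library size alone were named after their values were seen. Names come from the study's annotation table, held here in part.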

Additional observations from a re-analysis of the deposited data

Results flagged for a closer look

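Control plant 1 stood apart from the other control plants in 4 values of the members. It had the lowest level of PSBG Si020760m (21.4 CPM), the lowest log2 ratio of Si020760m to Si020825m (-9.70), the lowest log2 ratio of NDHJ Si020781m to Si020760m (-1.45) and the lowest difference between the NDH and PGR5 means (-0.96). In each the gap to the next plant was most of the range of the group. Heat-stressed plant 2 was apart at the low end in the log2 ratio of NDHA to PSBG Si020825m (-5.47) and of NDHA to PGR5-LIKE A (-1.08). Control plant 2 was apart at the high end in reads with several places in the genome per count (1.81). In all 7 of 42 groups of 5 or 6 plants were marked in this way, and chance marks about 1 in 20; values of the same plant and transcript are not independent of each other. No cause was tested.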

How the results depend on the processing

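NDHA, PSBG Si020760m and NDHJ kept their direction and call in all 22 alternatives. Library size only gave 13216 higher and 1385 lower transcripts, 6 higher and 1 lower members, 2 higher others, and turned PSBG Si020825m (0.12), PGR5 (0.47), PGR5-LIKE A (0.49) and NDF2 (0.97). Without psbA in the library size 3380 transcripts and 2 members were lower. Single reads only gave 3004 higher and 2792 lower transcripts and 0.38 for NDF2 over PGR5, by fewer counts. NDF2 was 0.03 with upper-quartile factors (0.0283) or no filter (0.0325), 0.0796 with at least 10 counts in every plant, 0.33 without psbA, 0.01 in DESeq2 (0.0136) and 0.01 with read pairs only (0.00886). Leaving out each plant in turn gave -0.25 to 0.13 for NDF2, 0.41 to 0.60 for NDF2 over PGR5, -0.20 to -0.0264 for NDHJ over Si020760m, -0.16 to 0.0656 for PGR5 over PGR5-LIKE A and 3 to 4 lower members. Without control plants 1 and 2 together, chosen after seeing the data, the ratios of NDHJ to Si020760m, NDF2 to PGR5 and Si020825m to PGR5-LIKE A differed by -0.17, 0.30 and -0.27. The replicate block changed no call of a member in edgeR (3 higher, 4 lower). For the ratios it gave 2.36 (Si020760m over Si020825m), -1.93 (NDHA over Si020825m), 0.48 (NDF2 over PGR5), -2.33 (NDHA over PGR5-LIKE A) and -0.41 (Si020825m over PGR5-LIKE A), where 5 pairs cannot go below an exact p of 0.0625. Same-numbered plants had correlations of -0.02 to 0.15. The causes of the differences between settings were not tested. NDF2 had the lowest counts of the members, 97 to 584 per plant, and its depth was not tested as a limit.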
